A study of Homo sapiens with 4 samples.

Results

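The comparison concerns where c-MYC was found on chromatin after the inhibitor AMG510, set against its solvent DMSO, and which groups of genes kept, lost or gained a c-MYC peak at their promoter. Its members are the complete peak lists of both libraries, 9552 peaks in DMSO and 10378 in AMG510, out of 28327 peaks in the 4 libraries of the series. A peak counts as a promoter peak when its summit is at most 1 kb from a site where a coding transcript starts (TSS). By this rule 5725 of the 19663 coding genes had a promoter peak in at least 1 of both lists. A gene with a promoter peak in both lists is called kept, a gene with a peak in DMSO only lost, and a gene with a peak in AMG510 only gained. "Lost" therefore means that no peak was called in AMG510, and the signal left at such a promoter was not analysed here.

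The cells were MIA PaCa-2, an established cell line of human pancreatic ductal adenocarcinoma, treated for 8 h with DMSO or with 100 nM AMG510. Chromatin was pulled down with the c-MYC antibody Y69 and sequenced (ChIP-seq), and what AMG510 binds is left out here. Control immunoglobulin (IgG) in DMSO and c-MYC in 10 nM trametinib, a MEK inhibitor, make up the remaining libraries. Each group is 1 library of 1 cell line, so no difference below has a replicate check and no test across libraries was possible. All shares carry 95% Wilson intervals, and differences of shares Newcombe intervals, which cover counting error only. The depth in peak calling, worked out from the deposited fold enrichments and p-values and not from read totals, was about 24000000 tags for DMSO and 24300000 for AMG510. Tags were extended to 177 bp in DMSO and 157 bp in AMG510, which sets how many pile up at a summit, and the genome-wide background was 1.57 and 1.42 tags. The median summit held 13 tags in DMSO and 11 in AMG510. At the lowest background, a peak needed 8 tags in DMSO and 7 in AMG510. Peak lists do not measure expression and check the cell type only loosely: of KRT8, KRT18, KRT19, EPCAM and VIM, genes of carcinoma cells, VIM alone had a promoter peak, in DMSO, and the blood cell genes PTPRC and CD3E had none.

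c-MYC is a transcription factor that binds DNA as a dimer with MAX, most tightly at the E-box CACGTG, and in growing cells it is found at many open promoters with and without that sequence. It is best known for driving genes of ribosome production, translation, nucleotide synthesis and energy metabolism. The MXD proteins and MNT compete with it for MAX and repress at the same sites.

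The E-boxes nearest the summits of some of the promoters described below are shown first. Only promoters with an E-box within 100 bp of the summit were eligible. Its presence in these sequences therefore cannot tell kept, lost and gained peaks apart. Each line is the plus strand of GRCh38, 5′ to 3′, with the E-box nearest the summit in capitals. CACGTG reads alike on both strands, so a single search covers both. An E-box lay within 100 bp of the canonical TSS in 1109 of 19688 windows of all protein-coding genes (5.63%, 5.32 to 5.96). The first 4 sequences are from promoters that were kept, the next 4 from promoters that were lost, PES1 was gained, and the last 3 were kept with few tags left in AMG510 (HK2, ODC1) or belong to the MYC network (MXD1).
NME1, chr17:51153581-51153610: agtgctgcgaacCACGTGggtcccgggcgc
COLEC11, chr2:3605462-3605541: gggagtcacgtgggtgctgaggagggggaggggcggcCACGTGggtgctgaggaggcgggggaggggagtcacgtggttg
PRDM15, chr21:41879499-41879578: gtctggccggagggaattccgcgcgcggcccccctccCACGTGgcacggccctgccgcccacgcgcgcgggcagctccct
PPRC1, chr10:102133652-102133731: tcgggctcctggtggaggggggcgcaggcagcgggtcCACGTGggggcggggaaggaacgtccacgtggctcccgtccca
MSN, chrX:65667470-65667549: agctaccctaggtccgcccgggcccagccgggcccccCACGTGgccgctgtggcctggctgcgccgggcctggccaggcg
CLUAP1, chr16:3500877-3500956: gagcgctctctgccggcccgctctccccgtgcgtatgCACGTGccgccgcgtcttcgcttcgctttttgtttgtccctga
RPIA and EIF2AK3, chr2:88691938-88692017: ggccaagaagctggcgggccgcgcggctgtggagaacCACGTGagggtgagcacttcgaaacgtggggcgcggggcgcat
MLXIP, chr12:122078346-122078425: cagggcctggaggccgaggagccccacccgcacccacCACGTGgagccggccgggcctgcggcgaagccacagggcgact
PES1, chr22:30591880-30591909: cacttcctcccgCACGTGccctgccaagga
HK2, chr2:74834984-74835063: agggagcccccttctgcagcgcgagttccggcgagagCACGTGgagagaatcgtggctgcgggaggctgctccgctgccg
ODC1, chr2:10447990-10448019: ccgctcggcgacCACGTGtctccgcaggcc
MXD1, chr2:69914248-69914327: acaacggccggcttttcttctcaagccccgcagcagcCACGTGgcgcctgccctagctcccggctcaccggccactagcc
Distances here run from the summit to the first base of the E-box on the plus strand. From the DMSO summit this was 2 bp at NME1 and 4 bp at PPRC1, where the summit lay inside the E-box. COLEC11 held 6 E-boxes within 100 bp of its summit in a repeated sequence, and PPRC1 held 3. In the lost promoters shown, which were picked for holding an E-box, the distance was 24 bp in MSN, 18 bp in CLUAP1, 3 bp in RPIA and 9 bp in MLXIP. At PES1 the distance from the AMG510 summit was 63 bp.

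DMSO peaks at promoters were called again in AMG510 more often than DMSO peaks elsewhere. An AMG510 peak overlapped 1530 of 4617 DMSO promoter peaks (33.1%, 31.8 to 34.5) and 432 of 4935 peaks elsewhere (8.75%, 8.00 to 9.58), a difference of 24.4 percentage points (22.8 to 26.0). The promoter peaks stood above the others at each strength. The DMSO list was split into quintiles by fold enrichment, the ratio of tags at the summit to the local background. In the weakest quintile 14.2% of promoter peaks and 3.59% of other peaks were kept, and in the strongest 58.8% and 42.8%. Of the 432 other peaks that were kept, 155 also overlapped an IgG peak (35.9%, 31.5 to 40.5), in contrast to 4 of the 1530 kept promoter peaks. Without peaks that overlap IgG, 33.1% of promoter peaks and 5.83% of other peaks were kept.

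**Figure D1:**
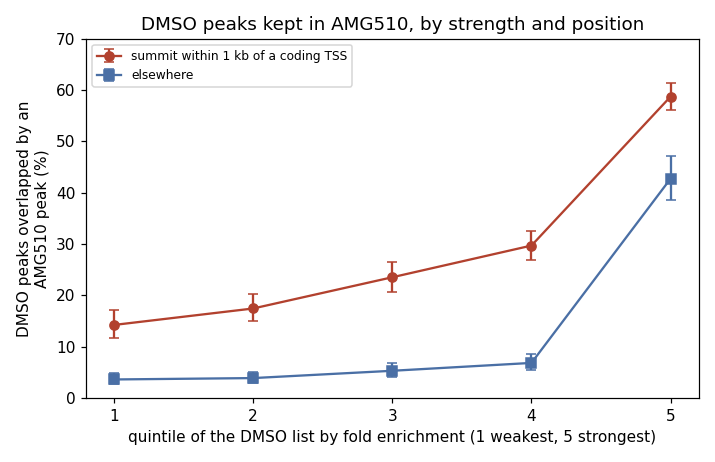
Percentage of DMSO c-MYC peaks that an AMG510 peak overlapped by at least 1 bp, by quintile of DMSO fold enrichment, for peaks with a summit within 1 kb of a coding TSS (circles) and elsewhere (squares). Bars are 95% Wilson intervals; promoter peaks range from 14.2% in the weakest quintile to 58.8% in the strongest and lie above the other peaks in each quintile.

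From the AMG510 side, the same split was seen. Of the AMG510 promoter peaks, 1549 overlapped a DMSO peak and 1257 did not, while 436 of the AMG510 peaks elsewhere overlapped one and 7136 did not. New AMG510 peaks were weak. Those at promoters had a median of 12 tags and a width of 200 bp, against 15 tags and 273 bp for AMG510 promoter peaks shared with DMSO, and new peaks elsewhere had 10 tags and 172 bp. In DMSO, kept promoter peaks had a median of 20 tags and 395 bp, and lost promoter peaks 15 tags and 260 bp. Loss was not limited to weak peaks, since 503 of the 3087 lost promoter peaks (16.3%) held at least 20 tags.

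Counted by gene, 4761 genes had a promoter peak in DMSO, which is 24.2% of all genes. Of these, 2045 (43.0%, 41.6 to 44.4) were kept and 2716 (57.1%, 55.6 to 58.5) were lost. Among the 14902 genes without a DMSO promoter peak, 964 (6.47%, 6.09 to 6.88) had one in AMG510, and these gained genes made up 32.0% of the 3009 genes with an AMG510 promoter peak. With only peaks of fold enrichment above 5 in both lists, the gained genes numbered 437. At 1711 of the 2045 kept genes (83.7%) the DMSO and AMG510 promoter peaks overlapped each other. Strong DMSO peaks were kept more often, with 1337 of 2387 genes kept (56.0%) above a fold enrichment of 5 and 708 of 2374 (29.8%) at 5 or below. Across quintiles of genes by DMSO fold enrichment, from weak to strong, the kept share was 24.9, 31.2, 37.4, 47.6 and 73.7%. IgG promoter peaks were present at 21 kept, 17 lost and 10 gained genes.

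Few lost or gained genes were near misses of the 1 kb rule. An AMG510 summit lay within 2 kb of 37 of the 2716 lost genes and within 5 kb of 115, and a DMSO summit within 2 kb of 17 of the 964 gained genes and within 5 kb of 39. In the AMG510 list, 32 genes had their nearest summit in the last 100 bp inside the limit and 25 in the first 100 bp beyond it. The genes just inside the limit were PTP4A1 at 997 bp and ATOH1 at 1000 bp, and those just outside were POC1B-GALNT4 at 1001 bp and YBX3 at 1002 bp. A single peak can serve several genes, which was true of 626 of the 4617 DMSO promoter peaks (13.6%).

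Gene functions differed widely in the share of promoters that were kept. The kept share of each set below is to be read beside the 43.0% over all genes. Where given, the share with a DMSO peak stands beside 24.2%, and the gained share beside 6.47%. Because strong DMSO peaks were kept more often, a set's median DMSO fold enrichment, where given, is to be read beside the 5.01 of all genes with a DMSO promoter peak. Genes of a set are not replicates, and no set was tested.

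**Figure D2:**
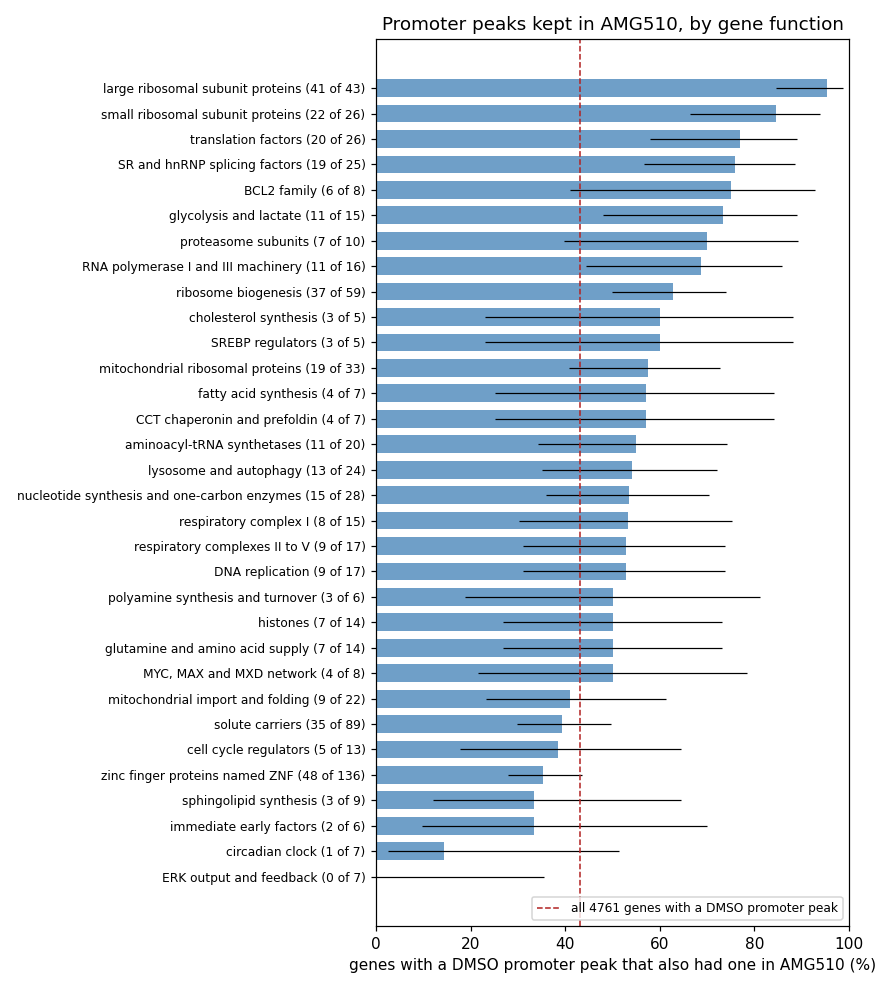
Percentage of genes with a DMSO c-MYC promoter peak that also had an AMG510 promoter peak, for each gene function with at least 5 such genes, with kept and total genes in brackets. Lines are 95% Wilson intervals and the dashed line is the 43.0% of all 4761 genes; large and small ribosomal subunit proteins lie at the top (41 of 43 and 22 of 26) and ERK output genes at the bottom (0 of 7).

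Genes of the cytosolic ribosome kept their peaks most completely of the sets in the plot. Of 79 ribosomal protein genes, 69 had a promoter peak in DMSO, of which 63 were kept (91.3%, 82.3 to 96.0) and 6 were lost, and 5 of the remaining 10 had a peak in AMG510 alone. None had an IgG promoter peak, beside 1.03% of all kept, 0.63% of all lost and 1.04% of all gained genes. In trametinib 61 had a promoter peak, a count without a share over all genes to set beside it. Their median DMSO fold enrichment was 7.60. In the strongest quintile of genes, where 73.7% of all genes were kept, 49 of 50 ribosomal protein genes were kept. In the 4 weaker quintiles, from weak to strong, 2 of 2, 3 of 6, 2 of 3 and 7 of 8 were kept. RPL5, a large subunit protein that with RPL11 holds the 5S RNA, had the promoter peak of largest fold enrichment in the DMSO list, with 86 tags (counting interval 68.8 to 106) and 64 tags (49.3 to 81.7) in AMG510. RPL13 had 88 tags in DMSO and 32 in AMG510, and RPL9 37 and 29. In the small subunit, RPS24 had 63 and 32 tags, RPS23 73 and 47, and RPS19 59 and 32. Lower AMG510 counts were not found at every gene. RPS3 had 29 tags in DMSO (19.4 to 41.7) and 38 in AMG510 (26.9 to 52.2), intervals that overlap. RPS13 had 9 and 18 tags, and RPL31 26 and 30. Among the 62 ribosomal protein genes with overlapping peaks, 55 had a lower scaled count in AMG510.

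The lost ribosomal protein genes included RPL10 (15 DMSO tags) in the large subunit and RPS15A (18), RPS26 (15) and RPS12 (18) in the small. RPL41 (15 AMG510 tags), RPL13A (22), RPL27A (11), RPS28 (14) and RPS21 (15) had a promoter peak in AMG510 alone. The canonical E-box was found at the strongest DMSO peak of 10 of the 69 genes (14.5%, 8.07 to 24.7), an interval that holds the 17.3% of all genes with a DMSO promoter peak. By subunit, these were 4 of 43 large subunit genes (9.30%, 3.68 to 21.6) and 6 of 26 small subunit genes (23.1%, 11.03 to 42.1).

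Ribosome biogenesis genes, whose products process ribosomal RNA and assemble subunits in the nucleolus, kept 37 of 59 promoters (62.7%, 49.95 to 73.9), with a median DMSO fold enrichment of 6.01. An E-box was present at 22 of 59 (37.3%, 26.1 to 50.05), 18 of the 37 kept genes and 4 of the 22 lost ones. LTV1, a small subunit export factor, had 49 tags in DMSO and 19 in AMG510. PNO1 had 52 and 27, and NPM1, the nucleolar protein nucleophosmin, 86 and 42. Lost genes of largest fold enrichment were URB1 (20 DMSO tags), RSL1D1 (20) and RRP9 (17). PES1, a large subunit assembly factor, was among the gained genes, 8 of the 34 without a DMSO peak (23.5%). PES1 had 16 AMG510 tags (9.15 to 26.0) and its summit in coding exon 1, 81 bp past the TSS. NOC4L and DDX51, which share a promoter, also had a peak in AMG510 alone, with 14 tags.

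RNA polymerase I and III machinery, which transcribes ribosomal and transfer RNA, kept 11 of 16 promoters, with a median DMSO fold enrichment of 5.74. Of its 21 genes without a DMSO peak, 4 were gained (19.05%). POLR1B, a polymerase I subunit, had 46 tags in DMSO and 14 in AMG510, and GTF3A, which starts 5S RNA transcription, 28 and 15. GTF3C3 (14 tags), TAF1A (14) and POLR3E (15) were lost. Translation factors kept 20 of 26 promoters (76.9%, 58.0 to 89.0), with a median DMSO fold enrichment of 6.36. EIF5A had 81 tags in DMSO and 39 in AMG510, EIF4G1 84 and 48, and EIF4G3 49 and 34. Lost factors were GSPT1 (22 tags), a release factor, the cap-binding protein EIF4E (18), EIF4B (17) and 3 others. Aminoacyl-tRNA synthetases kept 11 of 20, with AIMP2 at 53 and 17 tags and FARS2 at 32 and 17, and YARS1 (24 DMSO tags) the strongest that was lost.

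Splicing factors of the SR and hnRNP families kept 19 of 25 promoters (76.0%, 56.6 to 88.5), and 7 of the 15 members without a DMSO peak had an AMG510 one. The median DMSO fold enrichment of this set was 5.495. HNRNPA2B1 had 76 tags in DMSO and 28 in AMG510, HNRNPK 55 and 27, and SRSF6 44 and 28. HNRNPM (21 tags), HNRNPD (18) and SRSF9 (12) were lost, whereas HNRNPC (20 AMG510 tags), HNRNPUL2 (13) and SRSF3 (16) were gained. Proteasome subunits kept 7 of 10, at a median DMSO fold enrichment of 4.90. PSMD14 had 19 and 19 tags and PSMA7 21 and 20. Of the CCT chaperonin and prefoldin, 4 of 7 were kept, all of them CCT subunits, among which CCT5 had 55 and 29 tags.

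Mitochondrial genes lay closer to the background share. Mitochondrial ribosomal proteins kept 19 of 33 promoters (57.6%, 40.8 to 72.8). MRPL3, with 60 tags in DMSO and 46 in AMG510, stood far above the next of its set, MRPL4 (29 and 14) and MRPL36 (29 and 19). MRPS30 (26 tags), MRPS27 (22) and MRPL42 (14) were lost. Respiratory complex I kept 8 of 15, and complexes II to V kept 9 of 17. NDUFS1 had 39 and 20 tags through a promoter shared with EEF1B2, and NDUFB2 38 and 11. Import and folding genes kept 9 of 22, with GRPEL1 at 17 and 8 tags, and TIMM22 (24 DMSO tags) and DNAJA3 (19) lost.

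Metabolic genes were split within each pathway. Nucleotide synthesis and one-carbon genes, of which 28 of 38 had a DMSO promoter peak, kept 15 and lost 13. Kept members included NME1, a nucleoside diphosphate kinase (68 tags in DMSO and 22 in AMG510), CTPS1, which makes CTP (40 and 29), and PPAT and PAICS, early enzymes of purine synthesis that share a promoter (29 and 19). The lost ones included RRM2, a ribonucleotide reductase subunit (31 DMSO tags), CAD, which starts pyrimidine synthesis (24), PSAT1 (21) and TYMS, thymidylate synthase (16). An E-box was present at 7 of the 15 kept and 2 of the 13 lost genes of this set. Glycolysis and lactate genes kept 11 of 15 (73.3%, 48.1 to 89.1), among them HK2, SLC2A1, a glucose transporter (46 and 26 tags), and ENO1 (45 and 20). The median DMSO fold enrichment of this set was 5.46. PFKFB3 (27 tags), BSG (24) and PFKM (12) were lost. HK2, a hexokinase that carries out the first step of glycolysis, had 51 tags in DMSO (38.0 to 67.1) and 9 in AMG510 (4.12 to 17.1), the smallest ratio of the 1179 genes compared by level below.

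ODC1, the first enzyme of polyamine synthesis and a known MYC target, kept its peak with 59 tags in DMSO (44.9 to 76.1) and 17 in AMG510 (9.90 to 27.2), and AMD1 with 44 and 16. Further along that pathway the spermine synthase SMS (21 DMSO tags) and the spermidine synthase SRM (20) were lost. SMOX (14), of polyamine turnover, was lost as well, so that 3 of 6 polyamine genes were kept. Genes of glutamine and amino acid supply kept 7 of 14. SLC7A1 had 35 and 24 tags, whereas SLC7A5, a transporter of large neutral amino acids, had 32 tags in DMSO and no peak in AMG510. SLC3A2, the partner chain of SLC7A5, had a peak in AMG510 alone (15 tags).

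Cell cycle regulators kept 5 of 13 promoters (38.5%, 17.7 to 64.5) and DNA replication genes 9 of 17. CDKN2C, a CDK inhibitor, had 25 and 13 tags and CCNA2, cyclin A2, 14 and 11. CDKN1B (25 tags), CCNE2 (13) and BUB1B (14) were lost, and PLK1, a mitotic kinase, was gained with 16 tags. The 5 helicase subunits with a DMSO peak, MCM2, MCM3, MCM4, MCM6 and MCM7, were all kept, with 26 and 14 tags at MCM3 and 25 and 29 at MCM7. MCM10 (25 tags), POLE3 (21) and PCNA (19) were lost. Except MCM3, MCM10 and POLE3, these were singled out after their values were seen. In the BCL2 family 6 of 8 were kept, at a median DMSO fold enrichment of 5.925. The pro-apoptotic BID had 35 and 17 tags, BCL2L11 42 and 21, and BCL2 itself 32 and 11, and MCL1 was gained with 18 tags. Lysosome and autophagy genes kept 13 of 24, with BECN1 (40 and 29 tags) the strongest of the kept. They gained 8 of the 40 members without a DMSO peak (20.0%).

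Lipid genes were few and had moderate peaks. In fatty acid synthesis 4 of 7 were kept. ACLY, which makes cytosolic acetyl-CoA, had 19 tags in DMSO and 11 in AMG510, and MCAT 14 and 14. ACACA, acetyl-CoA carboxylase, had 16 and 19 tags at its overlapping peaks. Its DMSO peak of largest fold enrichment, with 17 tags, lay at another start of the gene, 48075 bp from the AMG510 summit. ME1 had 10 and 12 tags at peaks that did not overlap, with summits 200 bp apart. FASN, fatty acid synthase, had the largest DMSO count of the set at 32 tags and was lost, as were the desaturase SCD (15) and the citrate carrier SLC25A1 (16). In cholesterol synthesis LSS (31 and 29 tags), CYP51A1 (18 and 16) and PMVK (19 and 15, at peaks that did not overlap) were kept, GGPS1 (14) and LBR (12) lost and EBP (14) gained, and 16 of the 22 genes had no peak in either list. Fatty acid elongation kept 2 of 3, sphingolipid synthesis 3 of 9, and SREBP regulators 3 of 5. SREBF1, an activator of lipid synthesis genes, had 34 and 20 tags, and SREBF2 (10) was lost. Across 13 lipid genes taken from the study's screen, 4 of 6 were kept.

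The genes of the MYC network itself kept 4 of 8 promoters. MXD1 had 41 tags in DMSO (29.4 to 55.6) and 20 in AMG510 (12.2 to 30.9), and MXD3 38 (26.9 to 52.2) and 20 (12.2 to 30.9), both repressor partners of MAX. MXI1, a further member of that family, had 19 and 17 tags, and MGA 11 and 9 at peaks that did not overlap. MAX (18 DMSO tags), MNT (26), MYCL (15) and MLXIP (22) had a peak in DMSO alone. MYC, MYCN, MXD4, MLX and MLXIPL had no promoter peak in either list.

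Genes that follow ERK signalling, the output of the MAP kinase cascade, stood at the other end. Of the 20 genes in this set 7 had a DMSO promoter peak, and 0 of the 7 were kept (upper limit of the interval 35.4%). These were the phosphatases DUSP5 (13 DMSO tags) and DUSP7 (12), the feedback inhibitors SPRY1 (19) and SPRED1 (16), the transcription factors ETV4 (22) and FOSL1 (19), and the receptor EPHA2 (17). Their median DMSO fold enrichment was 5.03, near the 5.01 of all genes. The 7 genes lay in the 4 weaker quintiles of DMSO fold enrichment, in which 24.9 to 47.6% of all genes were kept. SPRY4 had a peak in AMG510 alone, with 13 tags and a fold enrichment of 2.66, above 0.096% of its list. FOSL1 and SPRED1 had a promoter peak in trametinib and the other 5 had none, again without a share over all genes beside it. DUSP2, a further MAP kinase phosphatase that is not in the set, was kept, with 67 tags in DMSO (51.9 to 85.1) and 20 in AMG510 (12.2 to 30.9).

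Immediate early factors kept 2 of 6, KLF4 (27 and 14 tags) and SRF (25 and 14), and lost ATF3 (19), NR4A2 (14), FOS (14) and EGR3 (12). Of circadian clock genes, several of which are themselves regulated through E-boxes, 1 of 7 was kept, NR1D2 (17 and 13 tags). HLF (15), PER2 (17) and TEF (15) were among the lost and CRY2 and PER3, at 10 tags each, were gained. These sets are small, and the interval of the kept share of clock genes (2.57 to 51.3%) holds the 43.0% of all genes, as does that of the immediate early factors.

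Large gene families were viewed as well. They do not stand apart from the growth programme, since solute carriers such as SLC2A1 and SLC7A5 belong to sets above. Zinc finger genes named ZNF kept 48 of 136 promoters (35.3%, 27.8 to 43.6), at a median DMSO fold enrichment of 5.10, close to that of all genes. ZNF131 was the strongest, with 78 and 33 tags, followed by ZNF331 (27 and 12, at peaks that did not overlap) and ZNF771 (36 and 20), and ZNF529 (26), ZNF621 (24) and ZNF587 (20) were lost. Solute carriers kept 35 of 89 (39.3%, 29.8 to 49.7), and SLC6A9, a glycine transporter, was the strongest that was lost (37 tags). Histone genes kept 7 of 14 and gained 11 of the 59 without a DMSO peak (18.6%). None of the 14 held an E-box at its DMSO peak (upper limit of the interval 21.5%), beside 17.3% of all genes with a DMSO promoter peak. Genes of this set lie in clusters, and their 14 DMSO promoters came from 10 peaks. Families of narrow expression rarely had a peak. Of 390 olfactory receptor genes 1 had a DMSO and another an AMG510 promoter peak, of 149 keratin genes 2 and 0, and of 66 protocadherins 2 and 1, with no gene kept.

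The strongest kept promoters outside the ribosome had lower counts in AMG510, but they were picked by their DMSO fold enrichment. Picking overlapping peaks by DMSO strength gave a median log2 ratio of AMG510 to DMSO tags of −0.61, and by AMG510 strength −0.32. COLEC11, which encodes a collectin of innate immunity, had 68 tags in DMSO (52.8 to 86.2) and 40 in AMG510 (28.6 to 54.5), at the start of a shorter transcript 10375 bp from the canonical TSS. CITED2, a coregulator that binds CBP and p300, had 81 (64.3 to 101) and 28 (18.6 to 40.5) at a summit 234 bp upstream of its TSS. PRDM15 had 75 and 39 tags, PEMT, an enzyme of phosphatidylcholine synthesis, 59 and 31, and PPRC1, a coactivator of mitochondrial gene expression, 72 and 32. At NME1, whose promoter also serves the read-through gene NME1-NME2, the DMSO peak ran from 51153422 to 51154130 on chromosome 17. The AMG510 peak lay inside it, from 51153793 to 51153963, and its summit had shifted from the 5′ UTR to intron 1.

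Lost promoters of largest fold enrichment had between 27 and 36 tags in DMSO. MSN encodes moesin, which links actin to the membrane, and had 29 tags (19.4 to 41.7) at a peak from 65667309 to 65667625 on chromosome X. A single peak with 34 tags served BCKDHA, of branched-chain amino acid breakdown, and EXOSC5, of the RNA exosome, which start on opposite strands. The peak of RPIA, an enzyme of the pentose phosphate pathway, had 30 tags in coding exon 1 and also serves an upstream transcript of EIF2AK3, whose canonical TSS is 64508 bp away. CLUAP1, a cilium gene, had 28, TRMT10C, a mitochondrial tRNA methyltransferase, 30, ANKRD36B 27, TMEM131L 33 and LFNG, a Notch glycosyltransferase, 36. LFNG also had an IgG promoter peak. Of these 8 peaks, 5 held an E-box within 100 bp of the summit. Beside this stand 13.8% of all lost promoter peaks and 23.2% of those in the strongest quintile.

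The strongest gained promoters had between 15 and 24 tags, counted in AMG510, whereas the tags of lost promoters are DMSO counts. The strongest was shared by CCDC40, a gene of motile cilia, and TBC1D16, with 24 AMG510 tags (15.4 to 35.7) at a peak from 80036491 to 80036689 on chromosome 17. The next was shared by the splicing genes CWC27 and SREK1IP1 (18 tags). HADHB, of mitochondrial fatty acid oxidation, had 20 tags, ARPP19 and BZW1 18 each, HNRNPC 20 and KLHL32 15. PES1 was the sole gene of these 8 peaks with an E-box near the summit.

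Levels were compared where the peaks of both lists overlapped, as the log2 ratio of AMG510 to DMSO tags at the summits after scaling to the tags in calling. Such a ratio exists only where AMG510 still had a peak. At 1530 promoter peaks the median was −0.50 (95% interval −0.53 to −0.47 over peaks, which are not replicates), a ratio of 0.709, and AMG510 was lower at 1363 of them (89.1%). The median promoter summit held 20 tags in DMSO and 15 in AMG510, and the width was 395 and 275 bp. Peaks away from promoters that overlapped an IgG peak had a median of −0.06 (−0.10 to −0.02, n = 155), while the 277 others away from promoters had −0.36 (−0.44 to −0.31). Over all 1962 overlapping DMSO peaks the median was −0.44 (−0.47 to −0.41). On the scale of fold enrichment, which divides by each library's own background, it was −0.17 (−0.20 to −0.15). With tags scaled to the genome-wide background it was −0.26. Picking peaks by their DMSO strength (fold enrichment above 5) gave −0.61, and picking by AMG510 strength −0.32.

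**Figure D3:**
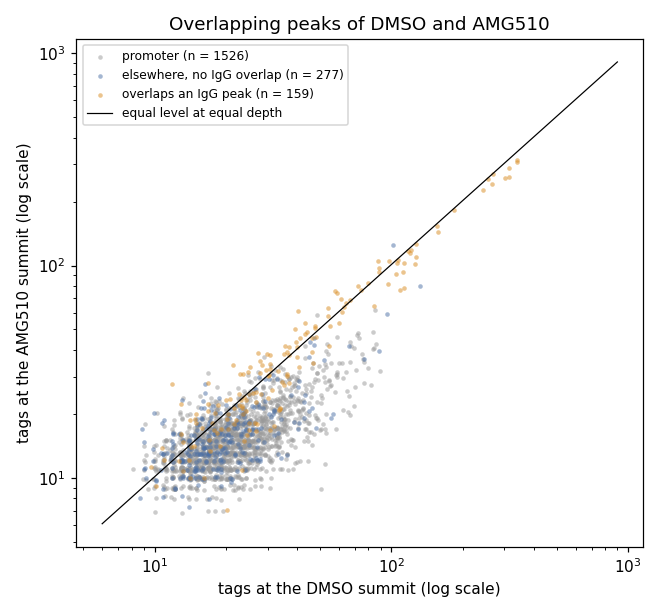
Tags at the AMG510 summit against tags at the DMSO summit for the 1962 DMSO peaks that an AMG510 peak overlaps, on log axes, with points moved by a small random amount so that equal counts can be seen. The line marks equal counts after scaling to the tags in calling, and takes no account of the different tag extension of the libraries. Most promoter peaks (grey) lie below it, with a median ratio of 0.709, and peaks that overlap an IgG peak (orange) lie along it.

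Among 1711 kept genes with overlapping promoter peaks the median log2 ratio of tags was −0.51 (−0.53 to −0.48), and 1522 were lower in AMG510. As fold enrichment it was −0.22 (−0.25 to −0.19), with 1224 lower. Ribosomal protein genes had −0.53 (−0.70 to −0.45) in tags, with 55 of 62 lower, and −0.20 (−0.34 to −0.03) as fold enrichment, with 41 lower. Ribosome biogenesis genes had −0.82 in tags (−1.02 to −0.58), 35 of 36 lower, and −0.47 as fold enrichment (−0.54 to −0.26), 33 lower. For translation factors these were −0.83 (−1.02 to −0.46), 19 of 19 lower, and −0.39 (−0.60 to −0.11), 17 lower. RNA polymerase I and III machinery had −1.11 (−1.39 to −0.56), 10 of 10 lower, and −0.58 (−0.97 to −0.17), 9 lower. For proteasome subunits the direction turned with the scale. Of 6 genes, 5 were lower in tags (−0.10, −0.23 to 0.20) and 5 higher as fold enrichment (0.05, −0.09 to 0.58). Lysosome and autophagy genes had −0.21 in tags (−0.61 to 0.12, n = 10) and −0.08 as fold enrichment (−0.26 to 0.34).

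For 1179 genes with a DMSO fold enrichment above 5 the median was −0.66. The smallest ratios were at HK2 (−2.52), at the promoter shared by AK6, TAF9 and RAD17 (52 tags in DMSO and 12 in AMG510, −2.14), at NPL, which breaks down sialic acid (44 and 12, −1.90), at ODC1 (−1.82) and at NDUFB2, a complex I subunit (38 and 11, −1.81). The counting intervals of both libraries did not overlap at any of these 5. They were picked as the smallest ratios of the same tags, so this is no separate support. The largest were at PHIP (17 and 24 tags, 0.48), RPS3 (0.37), NEMP2 (18 and 23, 0.33), ADARB1, an RNA editing enzyme (49 and 60, 0.27) and PPP2R1A, a scaffold of phosphatase 2A (14 and 17, 0.26), and their intervals did overlap. Summits were not fixed in place between the libraries, with a median shift of 78 bp at promoters and 35.5% within 50 bp.

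The E-box, which the matching of peaks did not use, was more frequent at kept than at lost promoter peaks. It lay within 100 bp of the summit in 23.3% of kept DMSO promoter peaks (21.2 to 25.5) and 13.8% of lost ones (12.6 to 15.1), a difference of 9.47 percentage points (7.06 to 11.95). Strong peaks held it more often in both groups. In quintiles by DMSO fold enrichment, from weak to strong, the kept and lost promoter peaks held an E-box in 8.51 and 8.11%, 9.70 and 8.82%, 13.9 and 12.3%, 18.9 and 16.5%, and, in the strongest, 30.9% (27.9 to 34.2) and 23.2% (19.9 to 26.8). The intervals of kept and lost peaks overlapped in the first 4 quintiles and not in the strongest. In the AMG510 list, promoter peaks shared with DMSO had an E-box in 21.05% (19.1 to 23.2) and new promoter peaks in 6.21% (5.00 to 7.68), whose interval holds the 5.63% of windows on all TSS. New peaks elsewhere had it in 2.52% (2.18 to 2.91).

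**Figure D4:**
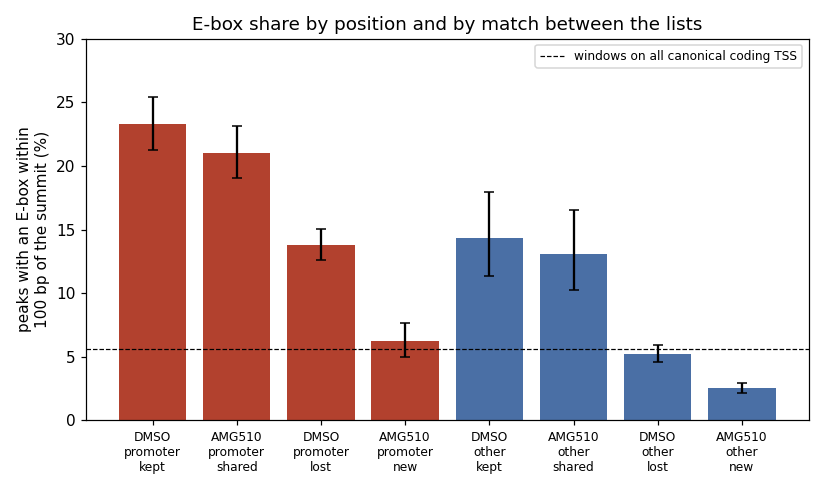
Percentage of peaks with an E-box within 100 bp of the summit, for promoter peaks (red) and peaks elsewhere (blue) of the DMSO and AMG510 lists, split by whether a peak of the other list overlaps. Bars carry 95% Wilson intervals and the dashed line is the 5.63% of windows on all canonical coding TSS; kept DMSO promoter peaks are at 23.3%, lost ones at 13.8% and new AMG510 promoter peaks at 6.21%.

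Base composition followed the same order. Within 100 bp of the summit the median GC content was 73.1% at kept, 72.1% at lost and 70.2% at new promoter peaks, with 23, 21 and 19 CpG dinucleotides, beside 66.7% and 18 for windows on all TSS. Lost DMSO peaks elsewhere had 47.3% GC and 2 CpG, whereas kept ones had 55.7% and 6.5.

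Far from the TSS, summits were rarer among kept than among lost or new promoter peaks. The median summit lay 94 bp downstream of the nearest coding TSS for kept, 78 bp for lost and 72 bp for new promoter peaks. Summits within 250 bp of the TSS made up 68.0% of kept (65.7 to 70.3), 64.2% of lost (62.5 to 65.9) and 60.9% of new promoter peaks (58.2 to 63.6). More than 750 bp away were 1.63% of kept (1.11 to 2.40), 3.92% of lost (3.29 to 4.66) and 4.77% of new peaks (3.73 to 6.10).

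**Figure D5:**
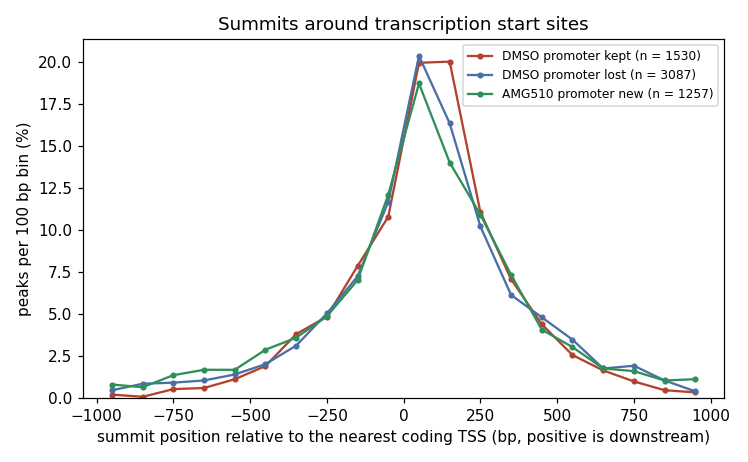
Position of promoter peak summits relative to the nearest coding TSS in bins of 100 bp, as a percentage of each group, for kept (red) and lost (blue) DMSO promoter peaks and new AMG510 promoter peaks (green). Positive positions are downstream; the 3 curves peak just past the TSS, with medians of 94, 78 and 72 bp.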

How the data were processed

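c-MYC ChIP-seq of MIA PaCa-2 cells was compared between the DMSO and the AMG510 library, with groups taken from the sample titles. Per their methods, the authors used Trimmomatic 0.39 for trimming and bwa for alignment to GRCh38, filtered for a mapping quality of at least 20 (SAMtools 1.9), took out duplicates with Picard, converted alignments to intervals with bedtools and called peaks with MACS2 at default settings in each library. Peaks on the ENCODE exclusion list were removed. BWA 0.7.17, MACS2 2.2.7.1 and bedtools 2.27.1 are versions from the submitters' processing notes. Both mates of a pair can count as tags, so counting intervals on tags are too narrow.

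The deposited lists give positions, a score (10 times the −log10 q-value), a fold enrichment, which is a ratio to the background, and the −log10 p-value of the summit, all as the authors' software wrote them. Whole-number tags were recovered from the deposited fold enrichment and −log10 p-value in 100% of peaks, and scaled to the tags in calling, with a genome size of 2700000000 bp.

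Summits were matched to protein-coding TSS of GENCODE version 44 within 1 kb, leaving out the mitochondrial chromosome. Peaks matched by an overlap of at least 1 bp, and where several AMG510 peaks overlapped a DMSO peak, the one with most tags gave the ratio. Positions are 1-based on GRCh38. The E-box was searched within 100 bp of each summit. Intervals are 95% Wilson, Newcombe, exact Poisson (tags) or order-statistic (medians). Functions were taken from 37 lists of gene symbols. The members and lists were chosen with earlier results of these data known. Genes named are the 8 of largest fold enrichment among kept, lost and gained, genes sharing a peak counting once, the 5 of largest and of smallest ratio, up to 3 kept, lost and gained per list, and every member with a peak for fatty acid and cholesterol synthesis, the MYC network and ERK output. Further names were chosen after their values were seen. A few members are not reported here. Alternatives varied the window, overlap, strength, IgG filter, motif and scaling. Python 3.11.15, pandas 2.3.3, scipy 1.17.1 and pysam 0.24.0 were used, and the matching and recovery were tested on simulated data. The IgG and trametinib lists were used only as side values.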

Additional observations from a re-analysis of the deposited data

How the results depend on the processing

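No paired analysis was possible because DMSO and AMG510 have 1 library each, which also leaves no replicate to drop. The alternatives gave 41 values for 10 results, of which 17 stayed within the interval of the reported value (for counts, within 1.5 times) and 24 moved. None of the differences and log2 ratios changed sign, which shares and counts cannot do. The scaling to the genome-wide background, selection on AMG510 strength, the DMSO-only strength filter, the quintiles by function, the scales by function and the list alternatives were chosen after seeing the data. The cause of a move was not tested.

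The share of DMSO peaks overlapped (20.5%) was 39.4% above a fold enrichment of 5, 23.95% above a score of 60 in both lists, 14.1% with 50% of the peak covered, 24.6% within 500 bp and 19.3% without IgG overlap. For AMG510 peaks (19.1%) it was 41.3, 66.7, 16.6 and 17.9% under the strength, score, 50% and IgG settings. Kept genes (43.0%) were 41.0% within 500 bp, 29.1% at a fold enrichment above 5 in both lists, 35.9% with overlapping peaks and 56.0% at a fold enrichment above 5 in DMSO. Gained genes (964) numbered 437 at a fold enrichment above 5. The difference between promoter and other peaks (24.4 points) was 26.4 at a fold enrichment above 5 and 27.3 without IgG. The E-box difference (9.47 points) was 5.47 within 50 bp, 11.97 within 200 bp and 14.99 with CACGCG counted. The median log2 ratio (−0.44) was −0.17 as fold enrichment, −0.50 at promoters, −0.61 above a DMSO and −0.32 above an AMG510 fold enrichment of 5, and −0.26 scaled to background. Ribosomal protein genes were kept in 83.6% with the strength filter in both lists.

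At these depths a summit rests on few tags, so a peak lost or gained can differ from its counterpart by counting error. With 1 library each, AMG510 and the preparation of its library cannot be told apart.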
